A study of Mus musculus with 2 samples.

Results

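Red blood cells carry oxygen on haemoglobin, which joins alpha-like to beta-like globin chains around heme, and an embryo changes the chains it uses as it grows. The genes followed here were the 7 globin genes *Hbb-y*, *Hbb-bh1*, *Hbb-bs*, *Hbb-bt*, *Hba-x*, *Hba-a1* and *Hba-a2* together with *Alas2*, the erythroid enzyme of the first step of heme synthesis. They were chosen by name and are 8 of the 31053 genes counted. Their unique molecular identifiers (UMIs, each standing for 1 captured RNA molecule) were summed in barcodes with at least 20% globin UMIs, called globin-high, and in all other barcodes, where they were read as background.

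The cells came from mouse eye cups at e13.5 (days after mating), with cornea, lens and optic nerve removed and 3 eye cups pooled for each of the 2 libraries. The control library was Myrf fl/fl, which carries floxed *Myrf* alleles and no Cre. The mutant library was Rx>cre Myrf fl/fl, in which Cre from an Rx transgene removes *Myrf*, a membrane-bound transcription factor, from the early eye field. Blood does not arise from the eye field, so the red cells of both libraries were those left in the dissected tissue. Each genotype had 1 library, so differences between genotypes have no replicate check and no p-values are given. All intervals are exact 95% intervals and cover counting error only. Where a pair of values stands without a label, the first is of the control library and the second of the mutant library.

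In the mouse embryo a first, primitive wave of red cells forms in the yolk sac and circulates with nuclei, and a later, definitive wave leaves the fetal liver and loses them. Primitive cells use the embryonic beta-like chains of *Hbb-y* and *Hbb-bh1* and the embryonic alpha-like chain of *Hba-x*. Definitive cells use the adult chains of *Hbb-bs* and *Hbb-bt* with those of *Hba-a1* and *Hba-a2*. Within the primitive wave, *Hbb-bh1* and *Hba-x* are known as the early genes, and *Hbb-y* and the adult alpha genes take over as the cells mature.

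In the GRCm38 build, with GENCODE annotation, *Hbb-y* lies at chr7:103851749-103853216, *Hbb-bh1* at chr7:103841637-103843164, *Hbb-bs* at chr7:103826534-103828096 and *Hbb-bt* at chr7:103812524-103813996, all on the minus strand. Read in the direction of transcription, *Hbb-bh1* starts 10.1 kb, *Hbb-bs* 25.1 kb and *Hbb-bt* 39.2 kb after *Hbb-y*. The alpha-like genes are on the plus strand, with *Hba-x* at chr11:32276400-32278116, *Hba-a1* at chr11:32283511-32284465 and *Hba-a2* at chr11:32296489-32297298. In both clusters the embryonic genes therefore come before the adult ones. *Alas2* lies on the X chromosome at chrX:150547375-150570638, on the plus strand. Each globin gene has 3 exons and *Alas2* has 11.

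The promoters of 5 of these genes are shown. The globin-high barcodes divided by the levels of *Hbb-y*, *Hbb-bs*, *Hbb-bt* and *Hba-x*. *Hba-a1* is shown as an adult alpha gene by which they did not divide. Each line gives the 120 bases before the RefSeq start of the gene (GRCm38.p6), read 5′ to 3′ on the gene's own strand, and capitals mark the CCAAT box, the CACCC motif, the GATAA motif and the TATAA box on either strand. They lie at chr7:103853208-103853327 for *Hbb-y*, chr7:103827929-103828048 for *Hbb-bs*, chr7:103813924-103814043 for *Hbb-bt*, chr11:32276480-32276599 for *Hba-x* and chr11:32283552-32283671 for *Hba-a1*.
Hbb-y: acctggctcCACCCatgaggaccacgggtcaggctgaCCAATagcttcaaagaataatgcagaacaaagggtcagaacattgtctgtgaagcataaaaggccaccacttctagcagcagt
Hbb-bs: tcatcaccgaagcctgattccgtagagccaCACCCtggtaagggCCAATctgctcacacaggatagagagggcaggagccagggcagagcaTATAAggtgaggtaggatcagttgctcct
Hbb-bt: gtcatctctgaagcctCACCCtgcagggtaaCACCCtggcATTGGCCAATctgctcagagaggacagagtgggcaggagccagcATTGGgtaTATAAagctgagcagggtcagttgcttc
Hba-x: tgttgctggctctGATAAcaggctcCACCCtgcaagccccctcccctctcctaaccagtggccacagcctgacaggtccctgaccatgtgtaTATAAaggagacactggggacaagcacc
Hba-a1: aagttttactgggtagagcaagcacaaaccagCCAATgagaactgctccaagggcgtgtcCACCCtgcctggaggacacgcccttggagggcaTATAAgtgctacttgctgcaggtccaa
Some GENCODE transcripts start upstream of the RefSeq start, so the windows overlap those gene models. RefSeq promoters were found for 7 of the 8 genes, all but *Hbb-bh1*. The promoters of *Hba-a1* and *Hba-a2* were identical over 297 of 297 aligned bases, so the second is not repeated.

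CACCC was present in each of the 5 windows, and CCAAT in each but that of *Hba-x*. TATAA was present in each but that of *Hbb-y*, and GATAA was found in that of *Hba-x* alone among the 5. The windows of the embryonic genes *Hbb-y* and *Hba-x* thus each lacked 1 of the 3 motifs that each adult window held. Among 32851 mouse promoters of the same length, the CACCC motif was present in 31.7%, the CCAAT box in 21.3%, the TATAA box in 11.8% and the GATAA motif in 10.5%, and 0.688% held the 3 motifs of the adult windows at once. In *Hbb-bt* the CCAAT box occurred 3 times, at -80 to -76, -75 to -71 and -36 to -32 from the start, against once in *Hbb-bs*, at -76 to -72. These matches describe the letters of the windows and were not tested for binding.

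The libraries held 6039 control and 6754 mutant barcodes with 63483835 and 75228861 UMIs. *Myrf* itself had 260 UMIs in the control library (4.10 counts per 1000000 UMIs, CPM) and 116 in the mutant library (1.54 CPM). The UMIs mark transcript 3′ ends, and whether those lie in the deleted part was not examined. The libraries had 72 barcode sequences in common, of which 60 had UMI totals within a ratio of 0.8 to 1.25 of each other. Of these sequences, 3 were globin-high in both libraries, and their totals lay between 531 and 631 UMIs.

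Globin-high barcodes numbered 228 of 6039 in the control library (3.78%, interval 3.31 to 4.29) and 517 of 6754 in the mutant library (7.65%, 7.03 to 8.31). They held 99.1% and 99.0% of all globin UMIs. Their median barcode had 22308 and 22597 UMIs but only 666 and 718 genes, against 9698 and 10282 UMIs and 2995 and 3091 genes in the other barcodes. Mitochondrial UMIs made up a median of 0.474% and 0.438% of the globin-high barcodes and 4.43% and 4.47% of the others. The barcodes nearest the threshold had 20.4% and 21.7% globin just inside it and 17.6% and 18.4% just outside, and few lay near it: 9 control and 22 mutant barcodes fell between 5% and 20%.

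**Figure D1:**
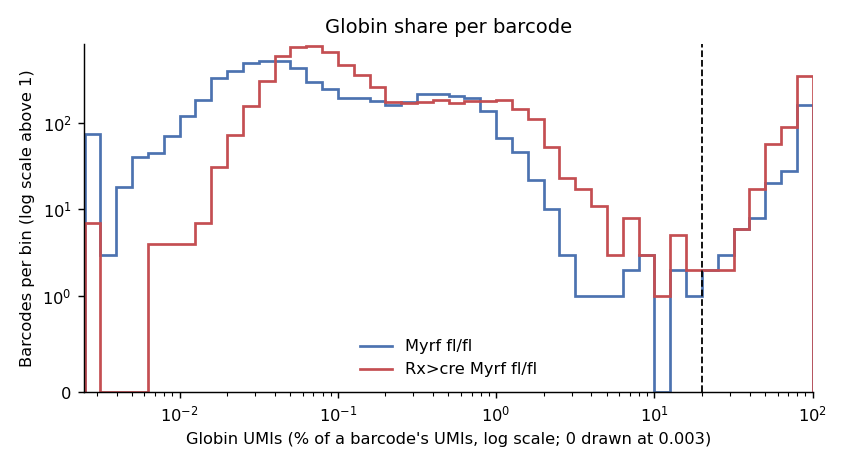
Number of barcodes (symmetric log axis) by percent of UMIs from the 7 globin genes (log axis), one line per library, with the 20% threshold as a dashed line. Most globin-high barcodes lie far to the right of the line, with medians of 85.3% in control and 83.7% in mutant barcodes.

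The red cell label was checked against 8 marker genes other than globins, of which 7 were counted and *Ahsp* was not. *Slc4a1*, the band 3 anion exchanger, was at 113 CPM in control and 104 CPM in mutant globin-high barcodes and at 0.356 and 1.05 CPM in the others. *Epb42*, a protein of the red cell membrane skeleton, was at 18.3 and 19.05 CPM against 0.0339 and 0.124 CPM. At least 3 of the markers were present in 86 of 228 control and 179 of 517 mutant globin-high barcodes, and in 0 of 5811 and 2 of 6237 other barcodes. At least 3 markers of another cell class were present in 27 control and 70 mutant globin-high barcodes, which may hold more than 1 cell. No doublet caller was run.

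*Alas2*, which played no part in choosing the globin-high barcodes, followed the globins. It was at 589.9 CPM (2670 UMIs) in control and 534.8 CPM (5728 UMIs) in mutant globin-high barcodes, and at 0.509 CPM (30 UMIs) and 1.21 CPM (78 UMIs) in the others. The ratio of globin-high to other barcodes for *Alas2* was 1122 in control and 437 in mutant barcodes. For the 7 globins, which define the split, the ratios ran from 950 for *Hbb-bh1* to 2457 for *Hbb-bs* in the control library and from 402 to 764 for the same genes in the mutant library. All 8 genes were thus past 2-fold in both libraries, as were 1.30% of the 15802 genes compared, and this is a property of the rule for all but *Alas2*.

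Among the other genes with at least 100 UMIs in the globin-high barcodes of each library, those nearest to the 8 genes in this ratio included *Hsd3b6*, *Tspo2*, *Hbq1b*, *Pdzk1ip1*, *Grap2*, *Trim10* and *Plek2*, ranked by the lower of the 2 libraries over 654 genes. *Hsd3b6*, a steroid dehydrogenase gene, had ratios of 1066 and 397. *Hbq1b*, a theta-like globin gene between *Hba-a1* and *Hba-a2* in the alpha cluster, had 629.6 and 315. *Plek2* had 192 and 128.

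The globin-high barcodes fell into separate groups by their beta-like chains. The embryonic share, the UMIs of *Hbb-y* and *Hbb-bh1* as a percent of all beta-like UMIs, was under 10% in 61 control and 116 mutant barcodes and at least 70% in 155 and 395. It lay between these in 12 and 6. Some of these held very few beta-like UMIs, down to 8 in control and 7 in mutant barcodes, so their share is poorly known. Barcodes at 50% or more are called embryonic-beta below and the others adult-beta, as ranges of a share and not as cell types. Embryonic-beta barcodes numbered 161 in the control library (70.6% of globin-high, interval 64.2 to 76.4) and 399 in the mutant library (77.2%, 73.3 to 80.7), which leaves 67 and 118 adult-beta barcodes. The adult-beta share of the globin-high barcodes was thus 29.4% in control and 22.8% in mutant barcodes.

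**Figure D2:**
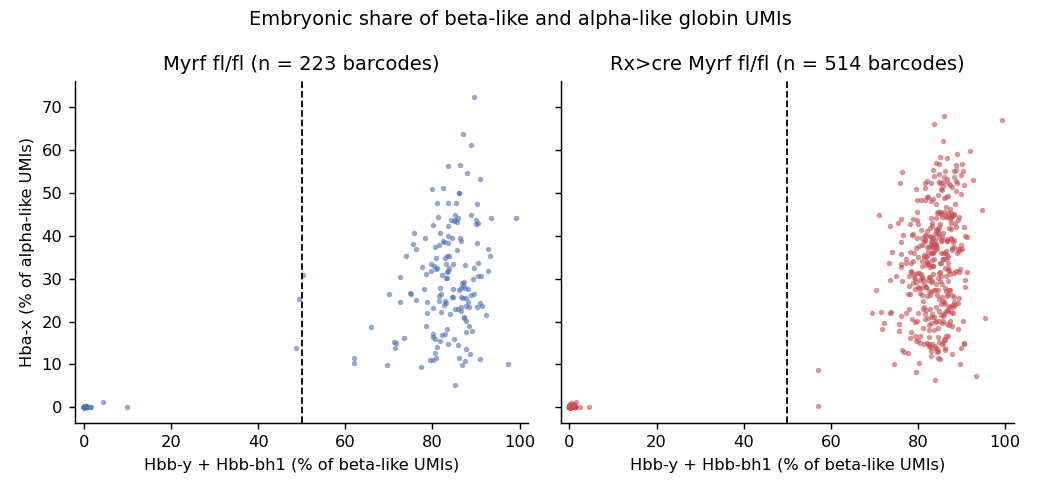
*Hba-x* as a percent of alpha-like UMIs (vertical) against *Hbb-y* plus *Hbb-bh1* as a percent of beta-like UMIs (horizontal), one point per globin-high barcode with at least 20 UMIs of each kind (223 control, 514 mutant). Points gather at the lower left and at the right, and a few control barcodes with many UMIs sit between them, from 48.7% and 49.5% to 65.8%.

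The alpha-like gene *Hba-x* was not used for that split, and it divided the same way. In embryonic-beta barcodes *Hba-x* was at 83009 CPM in control and 85987 CPM in mutant barcodes, and in adult-beta barcodes at 1114 and 106 CPM. As a share of alpha-like UMIs it was 31.0% and 34.8% in embryonic-beta and 0.599% and 0.0608% in adult-beta barcodes. The log2 ratio of adult-beta over embryonic-beta CPM was -6.22 (interval -6.30 to -6.14) in control and -9.66 (-9.85 to -9.48) in mutant barcodes. *Hba-x* was thus past 2-fold lower in adult-beta barcodes of both libraries, as were 8.54% of the 4684 genes compared. The beta-like genes made the split, so their ratios only describe it: -6.81 and -10.58 for *Hbb-y*, -1.78 and -2.95 for *Hbb-bh1*, 3.56 and 3.76 for *Hbb-bs* and 1.90 and 1.88 for *Hbb-bt*.

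The control value for *Hba-x* in adult-beta barcodes rested on 2 barcodes. These had embryonic shares of 48.7% and 49.5%, 4919 and 13893 UMIs, and 240 and 1062 *Hba-x* UMIs of the 1350 in all 67. They also held 1110 and 3639 of the 4929 *Hbb-y* UMIs. In the 61 control barcodes under 10% embryonic share, *Hba-x* was at 37.8 CPM (27.6 to 50.6), with a median of 0 UMIs a barcode, and in the 116 mutant ones at 106 CPM (92.6 to 120.05), with a median of 1. With adult-beta set at under 30% and embryonic-beta at 70% or more, the control log2 ratio of *Hba-x* was -11.04.

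*Hbb-y*, the main embryonic beta-like gene, was the most abundant of the 8 in embryonic-beta barcodes, at 457304 CPM in control and 458181 CPM in mutant barcodes. Over embryonic-beta barcodes with at least 5000 UMIs (128 and 312), its median was 481424 and 481352 CPM, with 10th and 90th percentiles of 362244 and 539524 CPM in control and 382186 and 541570 CPM in mutant barcodes. The control and mutant distributions of *Hbb-y* therefore lay over each other. The rules that chose these barcodes keep *Hbb-y* high in both libraries, so this likeness is partly fixed by them. In barcodes under 10% embryonic share, *Hbb-y* was at 142 CPM (121 to 165) and 294 CPM (272 to 317), with a median of 2 and 5 UMIs a barcode. Other, non-red barcodes had a median of 2 and 4 *Hbb-y* UMIs, so the *Hbb-y* counts in these adult-beta barcodes were about those of the background.

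*Hbb-bh1*, the other embryonic beta-like gene, was far scarcer. In embryonic-beta barcodes it was at 1591 CPM in control and 1962 CPM in mutant barcodes, or 0.287% and 0.355% of beta-like UMIs. Of the embryonic-beta barcodes with at least 5000 UMIs, 3 of 128 and 6 of 312 had no *Hbb-bh1* UMI. Its level varied widely among them, with a median of 1014 and 1401 CPM, 10th percentiles of 155 and 244 CPM and maxima of 14620 and 11826 CPM. *Hbb-bh1* thus spread over a far wider fold range than *Hbb-y*. The rules that chose these barcodes keep *Hbb-y* high in each of them and set no such bound on *Hbb-bh1*. The comparison therefore only describes these barcodes.

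**Figure D3:**
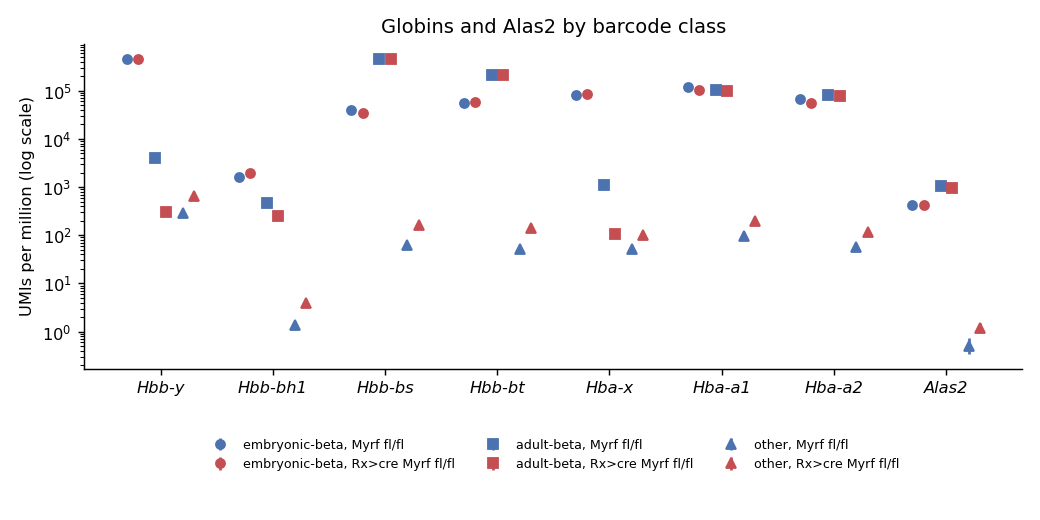
CPM (log axis) of each of the 8 genes in embryonic-beta (circles), adult-beta (squares) and other barcodes (triangles), by library, with exact 95% Poisson intervals that cover counting error only. *Hba-a1* and *Hba-a2* sit close together in both red cell classes, *Hbb-y* and *Hba-x* sit far apart, and every gene is lowest in the other barcodes of its library except *Hbb-y* in the mutant library, at 299 CPM in adult-beta and 643 CPM in other barcodes. In the control library this order of *Hbb-y* and *Hba-x* rests on the 2 adult-beta barcodes near 49%, since under 10% embryonic share they were at 142 and 37.8 CPM, below 293 and 52.0 CPM in other barcodes.

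*Hbb-bh1* was also found in a few adult-beta barcodes. Among those under 10% embryonic share it had a UMI in 13 of 61 control (21.3%) and 22 of 116 mutant barcodes (19.0%), against 1.24% and 2.85% of other barcodes. Its UMIs were concentrated: the 9 control and 13 mutant barcodes with at least 3 of them held 98.9% and 98.2% of the *Hbb-bh1* UMIs in these adult-beta barcodes, with the top barcode at 168 and 214 UMIs. This minimum of 3 was chosen after the values were seen. In those barcodes *Hbb-y* was at 133 and 245 CPM, against 143 and 301 CPM in the remaining ones, so *Hbb-bh1* was present there without *Hbb-y* above its level elsewhere. *Alas2* in them was at 992 and 1089 CPM against 1042 and 914 CPM.

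In the control library the barcodes with *Hbb-bh1* also held more *Mki67* and *Klf1*, from few UMIs. *Mki67*, a gene of dividing cells, was at 128 CPM (24 UMIs) in the 9 control barcodes against 12.95 CPM (13 UMIs) in the remaining 52. In the 13 mutant barcodes it had 0 UMIs (interval 0 to 13.9 CPM), against 13.8 CPM in the remaining ones. *Klf1*, an erythroid transcription factor, was at 123 CPM (23 UMIs) against 12.0 CPM (12 UMIs) in control barcodes. In mutant ones it was at 7.54 CPM (2 UMIs, 0.913 to 27.2 CPM) against 24.5 CPM. Both mutant intervals take in the level of the remaining barcodes, so no difference is shown within that library.

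From an *Hba-x* share of 10% upward, the embryonic-beta barcodes with more *Hba-x* also held more *Hbb-bh1*. Where *Hba-x* made up 10% to 20% of alpha-like UMIs (32 control and 60 mutant barcodes), *Hbb-bh1* was at 808 and 774 CPM. It was at 1182 and 1425 CPM from 20% to 30% (48 and 96 barcodes), at 1699 and 2014 CPM from 30% to 50% (66 and 193), and at 4529 and 3737 CPM from 50% (10 and 44). The 4 control and 4 mutant barcodes at 1% to 10% stood apart from this order and from each other, at 4597 CPM from 65 UMIs and at 64.8 CPM from 2 UMIs. *Hbb-bs*, an adult gene, ran the other way between the ends, from 49406 and 43292 CPM in the 10% to 20% range to 16973 and 22640 CPM from 50%. The mutant barcodes at 10% to 20% were shallow, with a median of 3130.5 UMIs, against 26205, 24138 and 23270 in the ranges above. The control ones had a median of 19839 UMIs. The part of depth in these orders was not tested.

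Over embryonic-beta barcodes with at least 5000 UMIs, the *Hba-x* share of alpha-like UMIs and the *Hbb-bh1* share of beta-like UMIs had a Pearson r of 0.37 and a Spearman rho of 0.33 in the control (128 barcodes) and 0.45 and 0.52 in the mutant library (312 barcodes). For *Hba-x* and *Alas2* the rho was 0.083 and 0.036. These describe barcodes of 1 library each, which have library and depth in common. The number of genes detected moved with both, at a rho with *Hba-x* of 0.25 and 0.18 and with *Hbb-bh1* of 0.36 and 0.30, and its part in the relation was not tested.

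*Hbb-bs* and *Hbb-bt*, the adult beta genes, were present in both kinds of barcode but in different proportions. In adult-beta barcodes *Hbb-bs* was at 460977 and 461018 CPM and *Hbb-bt* at 211588 and 212535 CPM, and the *Hbb-bt* share of the pair was 31.5% in control and 31.6% in mutant barcodes. In embryonic-beta barcodes *Hbb-bs* was at 38974 and 34054 CPM and *Hbb-bt* at 56819 and 57749 CPM, and *Hbb-bt* made up 59.3% and 62.9%. The split used the sum of the pair, not its proportions. The order of the genes was thus *Hbb-bs* over *Hbb-bt* in adult-beta and *Hbb-bt* over *Hbb-bs* in embryonic-beta barcodes, in both libraries.

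The proportion was narrow in adult-beta and wide in embryonic-beta barcodes. Over adult-beta barcodes with at least 200 UMIs of the pair (61 and 115), the *Hbb-bt* share had a median of 31.2% and 31.6% and an SD of 3.73 and 4.03 percentage points, and its maximum was 37.1% and 40.7%. Over embryonic-beta barcodes (128 and 323), the median was 65.1% and 65.2%, the SD 19.9 and 16.8 percentage points, and the range 12.0% to 99.6% and 17.1% to 99.7%. Counting alone would give an SD of 1.19 percentage points in embryonic-beta barcodes of each library. *Hbb-bt* exceeded *Hbb-bs* in 94 control (73.4%) and 262 mutant (81.1%) embryonic-beta barcodes, and in no adult-beta barcode of either library.

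**Figure D4:**
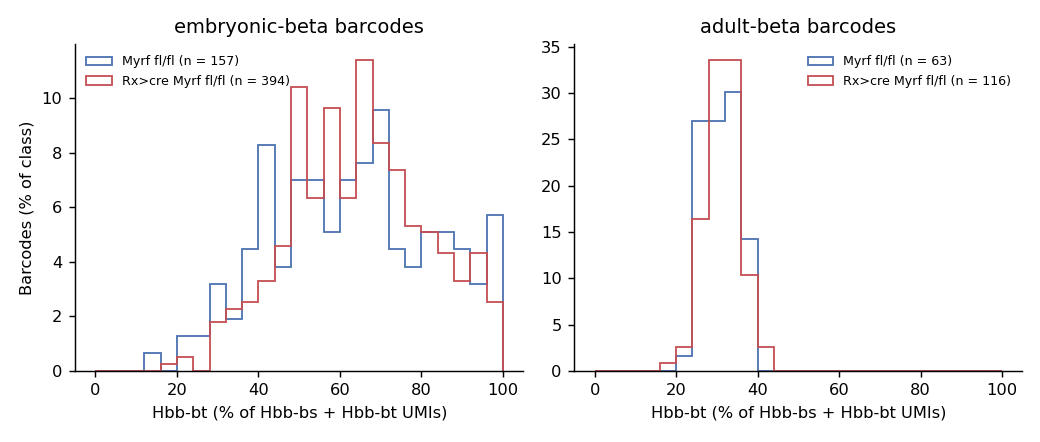
Histograms of *Hbb-bt* as a percent of *Hbb-bs* plus *Hbb-bt* UMIs, one value per barcode with at least 20 UMIs of the pair, by library and class (157 and 394 embryonic-beta, 63 and 116 adult-beta barcodes). Adult-beta barcodes form a narrow peak near 31%, and embryonic-beta barcodes spread from low values to nearly all *Hbb-bt*.

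Near-identical copies limit how far reads can be split. Within the last 300 start positions of each transcript, 47% of the 90-base windows of *Hbb-bs* and 46.7% of those of *Hbb-bt* occur unchanged in the other gene. For *Hba-a1* and *Hba-a2* the figures were 70% and 64.7%. Reads from such stretches cannot be assigned to 1 copy, so the proportions within each pair are uncertain in absolute terms. Levels of different genes are compared here as UMIs, which are not divided by length, since each stands for 1 molecule; the globin transcripts are 554 to 801 bases long and that of *Alas2* is 2037.

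*Hba-a1* and *Hba-a2*, the adult alpha genes, were used by both kinds of barcode at about the same level. *Hba-a1* was at 117549 and 104044 CPM in embryonic-beta and 104454 and 97682 CPM in adult-beta barcodes, a log2 ratio of -0.17 (-0.18 to -0.16) and -0.09 (-0.10 to -0.08). *Hba-a2* was at 66792 and 56937 CPM against 80531 and 76514 CPM, a log2 ratio of 0.27 (0.26 to 0.28) and 0.43 (0.42 to 0.43). Neither was past 2-fold. When globin UMIs were left out of the total, the ratio of *Hba-a1* changed sign, to 0.21 and 0.32. The *Hba-a2* share of the pair was 36.2% and 35.4% in embryonic-beta and 43.5% and 43.9% in adult-beta barcodes. Beta-like UMIs made up 67.5% and 69.1% of globin UMIs in embryonic-beta and 78.4% and 79.5% in adult-beta barcodes.

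*Alas2* was higher in adult-beta barcodes in both libraries. It was at 1027 CPM (1245 UMIs) against 430.0 CPM (1425 UMIs) in control and at 935 CPM (2081 UMIs) against 429.8 CPM (3647 UMIs) in mutant barcodes. The log2 ratio was 1.26 (1.15 to 1.37) and 1.12 (1.04 to 1.20), past 2-fold in both as were 3.37% of the 4684 genes compared. Over barcodes with at least 5000 UMIs the median of *Alas2* was 1077 and 907 CPM in adult-beta and 399 and 409 CPM in embryonic-beta barcodes, and the 10th percentile of adult-beta barcodes, 658 and 522 CPM, lay below the 90th of embryonic-beta ones, 704.7 and 696 CPM. The 2 distributions therefore overlapped at their edges. Each adult-beta barcode of that depth held an *Alas2* UMI. Under the study's filters with at most 2000 UMIs, which left 8 and 13 adult-beta barcodes, the log2 ratio was 0.32 and 1.69, so the control value was then under 2-fold.

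The rest of the heme pathway followed *Alas2* in part. Of 10 genes of heme synthesis and its transporters, 3 were past 2-fold higher in adult-beta barcodes of both libraries and 1 was lower (of all 4684 genes, 3.37% and 8.54% were), with a median log2 ratio of 0.57 and 0.52, against -0.13 and -0.12 over all genes compared. *Alad*, *Urod* and *Cpox*, enzymes of later steps, had log2 ratios of 1.41 and 1.27, 1.56 and 1.62, and 2.41 and 1.65. *Fech*, ferrochelatase, which puts iron into the ring, was at 0.94 and 1.07. *Abcb10*, a mitochondrial transporter, was the lower one, at -1.36 and -1.65. These ratios and those of the genes below are on all UMIs. Globins made up 86.3% and 84.8% of UMIs in adult-beta and 82.2% and 79.9% in embryonic-beta barcodes. Leaving globin UMIs out of the totals raises each ratio, as for *Hba-a1* above. Calls near 2-fold, such as those of *Fech* here and *Gpx1* below, therefore depend on the scale, as do the shares over all genes. The lower calls of *Abcb10* here and of *Fth1*, *Ftl1*, *Slc40a1*, *Ermap*, *Add2* and *Mxi1* below also depend on it. In the control library the rise is large enough to bring each of them short of 2-fold.

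Of 6 iron genes compared, 1 was higher and 3 were lower past 2-fold in both libraries, against 3.37% and 8.54% of all genes. *Slc25a37* (mitoferrin, which brings iron into mitochondria) was higher in adult-beta barcodes, at log2 ratios of 1.82 and 1.81. The ferritin genes *Fth1* and *Ftl1*, whose products store iron, were lower, at -1.34 and -1.45 and at -1.03 and -1.03. *Slc40a1*, the iron exporter ferroportin, was also lower, at -1.29 and -1.71 from few UMIs.

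Among 15 red cell membrane genes, 1 was higher and 2 were lower past 2-fold in both libraries, against 3.37% and 8.54% of all genes. *Ermap* and *Add2* were the lower ones, at log2 ratios of -1.34 and -2.05 and of -1.21 and -1.78. Among 9 erythroid transcription factor genes, *Lmo2* (70.1 against 3.62 CPM, 53.0 against 1.53 CPM) and *Hemgn* were higher and *Tal1* (6.60 against 60.7 CPM, 2.70 against 49.4 CPM) was lower.

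Of 9 terminal maturation genes, *Xpo7*, *Trim10*, *Ube2o*, *Fbxo7* and *Foxo3* were higher and *Mxi1* was lower, with a median log2 ratio of 1.12 and 1.27 over the list; of all genes 3.37% were higher and 8.54% lower. *Xpo7*, an exportin gene needed as the nucleus condenses, was at 2.15 and 1.67, and *Ube2o*, a ubiquitin-conjugating enzyme gene of reticulocytes, at 1.30 and 1.27. None of 8 red cell enzyme and chaperone genes passed 2-fold in both libraries, with *Gpx1* at log2 ratios of 1.01 and 0.87 and *Sod1* at -0.91 and -1.10.

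Genes known for globin switching were hardly detected. Of 9 such genes only 3 had enough UMIs to compare. *Sox6*, a repressor of embryonic globin genes, was at 9.90 against 0.604 CPM in control and 3.59 against 0.354 CPM in mutant barcodes, and rested on 14 and 11 UMIs in all. *Mbd2*, a gene for a methyl-DNA binding protein, was lower in adult-beta barcodes, at log2 ratios of -2.05 and -1.79. *Bcl11a* had 7 and 21 UMIs in all and was not compared. Of 7 other globin genes, *Hbq1a* and *Hbq1b* could be compared and neither passed 2-fold in both libraries, while *Hbb-bh2*, which lies between *Hbb-bh1* and *Hbb-bs*, had 11 and 5 UMIs in embryonic-beta and 0 in adult-beta barcodes.

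Over all genes, those most higher in adult-beta barcodes, ranked by the smaller of the 2 libraries' ratios among 1249 genes with at least 50 UMIs, included *Pla2g16*, *Lmo2*, *Mpp1*, *Cd47*, *Fam126a* and *Ssx2ip*. *Mpp1*, which encodes a palmitoylated protein of the red cell membrane, was at 129.5 against 6.64 CPM in control and 148 against 9.55 CPM in mutant barcodes. The genes most higher in embryonic-beta barcodes were *Trib3*, *Fam174b*, *Acp5*, *Ackr3*, *Cited2*, *Hmox1*, *Nudt4* and *Tspan18*. *Hmox1*, heme oxygenase, which breaks heme down, was at 177 against 9.90 CPM and 128 against 0.899 CPM, and *Nudt4* at 3004 against 204 CPM and 3009 against 137 CPM. The 8 markers of retinal neurons summed to 84.2 CPM in embryonic-beta and 6.60 CPM in adult-beta barcodes of the control library, with 4 of them at 0 in the latter, and to 21.8 and 31.9 CPM in the mutant library; their part in these ratios was not tested.

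Between genotypes, none of the 8 genes was past 2-fold in globin-high barcodes in either direction, while 7.14% of the 8778 genes compared were past 2-fold higher and 3.88% lower. The 7 globins choose these barcodes and made up 83.3% and 80.9% of their UMIs, which limits how far the abundant ones can differ in CPM. The lack of 2-fold calls among them is therefore not comparable with the shares over all genes. The log2 ratio of mutant over control was 0.11 for *Hbb-y*, 0.32 for *Hbb-bh1* and 0.16 for *Hba-x*, the embryonic genes. It was -0.31 for *Hbb-bs*, -0.13 for *Hbb-bt*, -0.15 for *Hba-a1*, -0.21 for *Hba-a2* and -0.14 for *Alas2*. On this scale the embryonic genes were slightly higher and the adult genes and *Alas2* slightly lower in the mutant library, where embryonic-beta barcodes made up more of the globin-high ones, but the directions changed with the scale and the filter. With globin UMIs left out of the total, *Hbb-y* was at -0.08 and *Hba-x* at -0.03. With the study's filters and at most 2000 UMIs, *Hbb-bs* was at 0.27, *Hbb-bt* at 0.45, *Hba-a1* at 0.07 and *Alas2* at 0.27. The embryonic share of beta-like UMIs over all globin-high barcodes was 57.4% in control and 63.2% in mutant barcodes.

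Within embryonic-beta barcodes alone the log2 ratios were 0.00 for *Hbb-y*, 0.30 for *Hbb-bh1*, -0.19 for *Hbb-bs*, 0.02 for *Hbb-bt*, 0.05 for *Hba-x*, -0.18 for *Hba-a1*, -0.23 for *Hba-a2* and -0.0013 for *Alas2*. Within adult-beta barcodes they were 0.00 for *Hbb-bs*, 0.01 for *Hbb-bt*, -0.10 for *Hba-a1*, -0.07 for *Hba-a2* and -0.14 for *Alas2*. *Hbb-bh1* was at -0.87 (-1.04 to -0.70) there, opposite to its direction in embryonic-beta barcodes, and under 10% embryonic share it was at 383 and 254 CPM. *Hbb-y* and *Hba-x* were at -3.76 and -3.39 in adult-beta barcodes, which came from the 2 control barcodes near 49% embryonic share: in barcodes under 10% the mutant library had the higher level of both, as given above. *Hbb-bh1* had the largest ratio of the 8 genes in embryonic-beta barcodes.

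Other genes of the globin-high barcodes differed between libraries by more. *Hspa1a*, a heat shock gene, was at 0.884 CPM in control and 17.2 CPM in mutant barcodes, and *Gal*, which encodes a neuropeptide, at 51.3 and 4.76 CPM. The genes chosen by the same ranking included *Dct* of pigment cells (2.43 and 11.2 CPM), *Lum* of mesenchyme (5.74 and 14.9 CPM) and *Nefm* and *Stmn2* of neurons (13.9 and 4.39 CPM, and 27.0 and 9.71 CPM), whose usual source is not red cells. Of the erythroid genes, *Epor*, the erythropoietin receptor, was at 10.6 CPM in control and 5.04 CPM in mutant barcodes. No gene of the following lists, each with 8 to 15 genes compared, was past 2-fold in either direction. They were heme synthesis, red cell membrane, erythroid transcription factor, red cell enzyme, terminal maturation and cell cycle. Of all 8778 genes 7.14% were higher and 3.88% lower, so lists this short would hold few such genes in any case. *Slc11a2* (23 and 23 UMIs) and *Slc40a1* (21 and 25 UMIs) of the iron list were lower in the mutant library, also from few UMIs. Of the globin switching and other globin lists, *Nr2c2* and *Cygb* were past 2-fold higher and *Sox6* and *Hbb-bh2* lower, all from few UMIs.

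In the other barcodes the globin genes were present at a low level, and at a higher one in the mutant library. The 7 globins summed to 610.3 CPM in control and 1370.5 CPM in mutant barcodes. *Hbb-y* made up the largest part, at 293 and 643 CPM, followed by *Hba-a1* at 94.0 and 201.0 CPM and *Hbb-bs* at 61.8 and 161 CPM. *Hbb-bh1* was at 1.34 and 3.98 CPM and *Alas2* at 0.509 and 1.21 CPM. The log2 ratios of mutant over control ran from 0.99 for *Hba-x* (0.93 to 1.05) to 1.56 for *Hbb-bh1* (1.20 to 1.95), and 7 of the 8 were past 2-fold, against 1.42% of 17139 genes. In barcodes under 1% globin only *Hbb-bh1* (1.11 and 2.28 CPM) and *Alas2* (0.340 and 0.754 CPM) still were. These were the scarcest of the 8, with 65 and 145 and with 20 and 48 UMIs. *Hbb-y* was at 223 and 444 CPM (13120 and 28280 UMIs), just short of 2-fold. *Hbb-bs* was at 52.9 and 80.2 CPM and *Hba-a1* at 70.1 and 116 CPM. The mutant library also had more globin-high barcodes, 7.65% against 3.78%, and the part of this in the background was not tested.

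A few barcodes carried much of it. The top mutant barcode among the others had 49523 UMIs of which 18.0% were globin, an embryonic share of 0.320%, and 10.1% of the globin UMIs of all other barcodes, among them 37.1% of the *Hbb-bs* UMIs. The top control barcode had 23042 UMIs, an embryonic share of 84.4% and 11.2% of those UMIs. In barcodes under 1% globin, the sum was 466 CPM in control and 849 CPM in mutant barcodes, so the mutant library remained higher without them.

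The number of globin UMIs in other barcodes changed little with their depth. The median was 4 UMIs in control barcodes under 1000 UMIs and 5 in those of 20000 or more, and 7 and 11 in mutant barcodes. By marker class, over the classes with at least 20 barcodes in each library, the median was 4 to 6 UMIs in control barcodes. In mutant ones it was lowest in surface epithelium, at 7, was 10 in endothelial cells, and was highest in muscle precursors, above 10. In barcodes under 1% globin, retinal progenitors were at 406 and 832 CPM, periocular mesenchyme at 397 and 780 CPM, endothelial cells at 343 and 755 CPM and macrophages at 387 and 926 CPM. By CPM in barcodes under 1% globin, the lowest of these classes in both libraries was the muscle precursors, at 191 and 490.1 CPM. This class had 22 and 26 barcodes in all, with a median depth of 24980 and 25318 UMIs.

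Read at 1 depth, single genes were also more often present in the mutant library. With each other barcode thinned to 3000 UMIs, which left out 1765 control and 1578 mutant barcodes, 68.7% of 4046 control barcodes and 87.3% of 4659 mutant ones held a globin UMI. *Hbb-y* was present in 45.4% and 69.5% of thinned barcodes (89.2% and 98.4% unthinned), *Hba-a1* in 18.6% and 30.1% (50.4% and 68.9%), *Hba-x* in 9.76% and 18.7% (29.1% and 50.02%) and *Alas2* in 0.124% and 0.236% (0.430% and 1.01%). Each of these shares was higher in the mutant library, and they are read here as background.

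**Figure D5:**
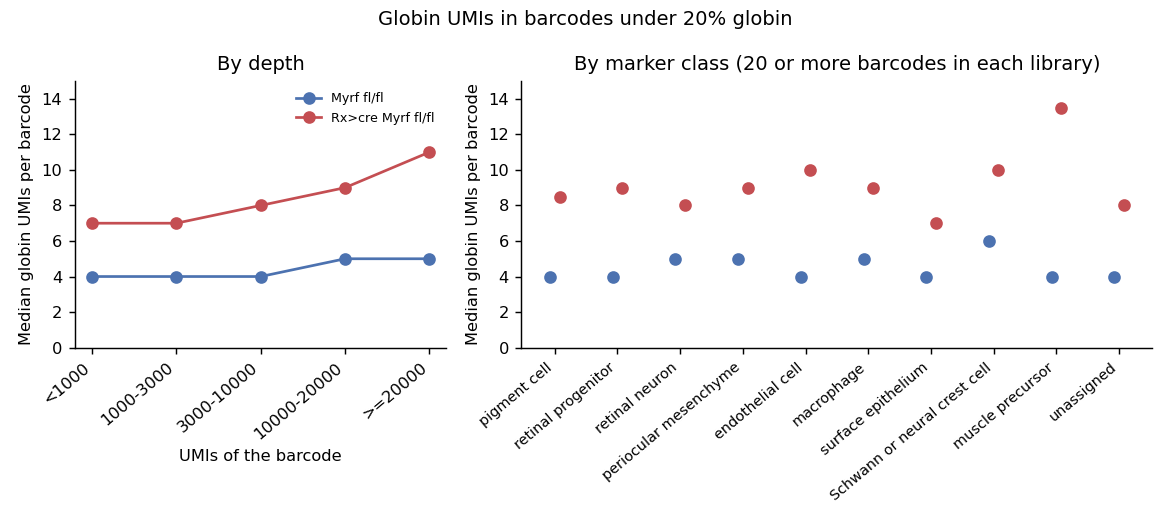
Median number of globin UMIs in barcodes under 20% globin, by barcode depth in UMIs and by marker class (classes with at least 20 barcodes in each library), for the control and mutant libraries. The mutant median lies above the control median throughout, at 7 to 11 UMIs against 4 to 5 over the depth bins.

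The background had a mixture of both red cell programs. In barcodes under 1% globin, the embryonic share of beta-like UMIs was 70.4% (69.8 to 71.1) in control and 74.8% (74.4 to 75.3) in mutant barcodes, above the 57.4% and 63.2% of the globin-high barcodes of the same library and below the 82.7% and 83.4% of embryonic-beta barcodes. *Hba-x* made up 22.8% and 26.2% of alpha-like UMIs there, against 24.9% and 29.4% in globin-high barcodes. *Hbb-bt* made up 43.8% and 46.6% of its pair, against 39.3% and 42.3%. The background thus had the higher embryonic beta share. The order for *Hba-x* depended on the weighting: with globin-high barcodes weighted alike its share in them was 21.1% and 25.6%, below that of the background.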

How the data were processed

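Eye cups were dissociated with papain and made into 10x 3′ libraries. Per the submitters' processing notes, the authors used Cell Ranger 7.1.0 and Seurat 4.1.1 with mm10, and deposited raw UMI counts per gene and barcode. Reads that fit near-identical copies equally are not counted by such software, which lowers the counts of paralogous globin genes. Every deposited barcode was used. The study's own filters (at least 200 genes, at most 15% mitochondrial UMIs, at most 2000 counts) were an alternative only, since the last removes most globin-high barcodes.

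UMIs were summed per library and class and given as CPM of all UMIs of that class. Intervals were exact (Poisson for counts, Clopper-Pearson for shares, conditional binomial for ratios). Log2 ratios had 1 UMI added to each sum, and a gene was compared from 10 UMIs. Past the fold means 2-fold or more, in both libraries for adult-beta against embryonic-beta. No test was run, as each genotype had 1 library. Named genes were the 8 genes, the listed pathway genes and the top ranks of each comparison. Some of the genes these rules name are not reported here. A marker class needed UMIs of at least 3 of its 8 markers. The genes, lists and alternatives were chosen with earlier results of these data known. Python 3.11.15, numpy 2.4.6, scipy 1.17.1, pandas 2.3.3 and matplotlib 3.10.9 were used, and the ratio code was tested on simulated data. Promoters came from RefSeq and gene positions from GENCODE, both on GRCm38.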

Additional observations from a re-analysis of the deposited data

How the results depend on the processing

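With 1 library a genotype, no replicate could be left out and no difference between genotypes could be set against replicate spread. No paired analysis was possible because each group had 1 library. At a minimum globin share of 10%, globins in other barcodes were at 533 and 1065 CPM and the embryonic share of beta-like UMIs in mutant globin-high barcodes was 63.1%. At 40% they were at 689 and 1931 CPM and 63.1%. With the study's gene and mitochondrial limits, background globins were at 575 and 1327 CPM. With at most 2000 UMIs added, 2.51% and 5.75% of barcodes were globin-high, the embryonic share was 64.0% and 64.1%, the background 5090.4 and 9381 CPM, and 12 genes were past the fold between the beta classes and 111 between genotypes, against 558 and 968 as reported. With at least 50 UMIs a gene these were 265 and 121. Without barcodes that held 3 markers of another class, 6.69% of mutant barcodes were globin-high and the embryonic share was 57.8% and 62.7%. With barcodes weighted alike it was 59.8% and 64.7%. Limiting the other barcodes to under 5% globin gave 512 and 1025 CPM, and to under 1% gave 466 and 849 CPM. Without the barcode sequences that both libraries hold, an alternative added after the data were seen, the background was 603 and 1356 CPM. Thinned to 1500 UMIs, 51.3% and 69.8% of other barcodes held a globin UMI, and at 6000 UMIs 85.3% and 97.6%. Where these settings gave the share of globin-high barcodes or the background in both libraries, the mutant value was the higher. Of the remaining values of the main results, 32 moved by less than the counting interval or, for counts of genes, by less than 1.5 times. Where a value moved, the cause was not tested.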

Other observations

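A few globin-high barcodes held *Hba-a1* with hardly any *Hba-a2* or beta-like UMIs. In 5 control and 4 mutant barcodes under 20% of globin UMIs were beta-like. These had 514 to 631 and 512 to 597 UMIs in all, of which 409 to 471 and 103 to 454 were *Hba-a1*, while *Hba-a2* had 0 to 1 and 1 to 6 UMIs. In all other globin-high barcodes with at least 50% beta-like UMIs, both alpha genes were present, with at least 30 and 15 *Hba-a1* and at least 17 and 10 *Hba-a2* UMIs. Of the *Hba-a1* barcodes, 3 in each library carried a barcode sequence that the other library also held. They made up 4 of the 67 control and 2 of the 118 mutant adult-beta barcodes.

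The cell cycle list differed between the libraries within the beta classes. *Mki67* was at 30.5 CPM in adult-beta and 7.54 CPM in embryonic-beta barcodes of the control library, a log2 ratio of 2.00, and at 12.1 and 14.0 CPM in the mutant library, a ratio of -0.17. *Top2a* had log2 ratios of 1.45 and -1.04 and *Ccna2* of 2.21 and -0.05. Of the 37 *Mki67* and 31 *Top2a* UMIs in control adult-beta barcodes, 24 and 22 lay in the 9 barcodes with at least 3 *Hbb-bh1* UMIs. In the other 52 control barcodes under 10% embryonic share, *Mki67* and *Top2a* were at 12.95 and 8.97 CPM. In mutant adult-beta barcodes they were at 12.1 and 8.54 CPM. *Pcna* alone of the 10 genes was past 2-fold in both libraries, at 1.17 and 1.11, and 3.37% of all genes were higher. The difference between the libraries was not tested.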
